A study of Saccharomyces cerevisiae with 12 samples.

Results

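Overnight hypoxia was compared with growth in air in budding yeast cells labelled ixr1 null, on the 2 arrays titled for hypoxia and the 2 titled for air among the 12 arrays of the series, over all 5974 open reading frames (ORFs) listed. The background is BY4741, a haploid laboratory strain obtained from EUROSCARF, and the genotype is labelled ixr1 null. Cells grew at 30 C in a synthetic complete medium whose sugar was glucose at 2%. The hypoxic cultures stood overnight in anaerobic jars at an oxygen level below 1%, in medium to which ergosterol (20 mg/l) and the detergent Tween 80 (at 0.5%), a source of unsaturated fatty acid, had been added. The air cultures are labelled as grown in normoxia, so the oxygen level, the jar and the supplements cannot be told apart. The 2 wild type groups set beside them, overnight hypoxia and air, are labelled BY4741 without the null and had the same 2 conditions. The titles letter the arrays of each group A and B and do not say whether the letters are separate cultures, so each p-value below reflects array-to-array spread that may be technical. RNA was read as labelled cDNA made from poly(A) tails, and the values of every array average close to 1, so fewer cells and less RNA per cell cannot be told apart. The strand read is not stated, and close paralogues may share signal.

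Budding yeast ferments glucose with or without oxygen, but it needs oxygen to make heme, sterols and unsaturated fatty acids. Heme carries the oxygen signal: with heme, the activator Hap1 keeps the gene of the repressor Rox1 on, and without heme a set of hypoxic genes is released. Many of these encode oxygen-sparing isoforms of enzymes, sterol import proteins and a second set of cell wall mannoproteins (the Dan, Tir and Pau proteins) that replace the Cwp proteins of aerated cells. Ixr1 belongs to the HMG-box class of proteins that bind DNA and is known as a regulator of hypoxic genes. The comparison asks which messages differ between the conditions in cells labelled as lacking it.

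The labelled genotype was checked first. IXR1 read 0.608 and 1.13 on hypoxia arrays A and B of the cells labelled null, against 9.75 and 8.64 on their air arrays, where an array averages 1. In the wild type arrays it read 0.441 and 0.399 in hypoxia, against 8.11 and 7.03 in air. The signal at IXR1 was thus no lower in air in the arrays labelled null than in wild type. Which stretch of the gene the probe covers is not known here, so these arrays are called by their label throughout. BY4741 is known to carry deletions in HIS3, LEU2, MET17 and URA3. HIS3 read 0.82 and 0.571 in hypoxia, against 0.577 and 0.54 in air. That is above the median of the positive values of each array, which lay between 0.33 and 0.447. Of the other 3, LEU2 read 0.0749 and 0.475 against 0.299 and 0.554, URA3 read 0.206 and 0.077 against 0.264 and 0.107, and MET17 was at or below 0.0404 on all 4 arrays. Signal above 0 was thus also read at genes deleted in the strain. How much of each gene its deletion leaves is not known here, so HIS3 may not be wholly absent.

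The arrays of each group ranked the ORFs alike, with Spearman correlations of 0.837 between the hypoxia arrays and 0.886 between the air arrays, against 0.509 to 0.606 between conditions. The brightest values differed. On the air arrays they were 24.5 and 20.8, with 22 and 25 ORFs within 10% of them, and on the hypoxia arrays 57.3 and 49.9, with 4 and 5 such ORFs. Exact zeros, read here as not detected, numbered 104 and 112 in hypoxia and 123 and 311 in air. Of 5505 ORFs with a value on all 4 arrays, hypoxia array B read over 2 times array A at 928 and array A over 2 times array B at 357, and for the air arrays these counts were 717 and 417. Arrays carry no counts, so precision is limited by the number of arrays.

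Of the 5505 ORFs tested, 353 rose in hypoxia (6.41%) and 307 fell (5.58%) at an adjusted p under 0.05 in limma's moderated test with Benjamini-Hochberg adjustment. The smallest change past the test was 3.08-fold. Folds and log2 differences are fitted on quantile-normalized values unless the deposited scale is named, while readings are deposited values. A fold is thus not the ratio of the readings beside it, and for some ORFs even the sign differs. Leaving out air array A reduced the 660 calls to 388, of which 382 were among the 660. On the deposited scale there were 427, and 421 of them were among the 660. Of the rises, 125 were dim in air, meaning in the lowest 10% of positive values on at least 1 air array, and of the falls 126 were dim in hypoxia. Of all falls, 14 lay within 10% of the brightest value of an air array. For these dim or bright ORFs a fold has no firm base, so they are given by their readings, and any fitted log2 difference printed for one is not a measured size. The 228 rises that were neither dim nor near the brightest value on any array had a median of 11.3-fold, and 89 of them exceeded 16-fold. The 168 such falls had a median of 9.32-fold, with 55 over 16-fold. The median log2 difference over all ORFs tested was -0.20, and it was -0.03 on the deposited scale.

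**Figure D1:**
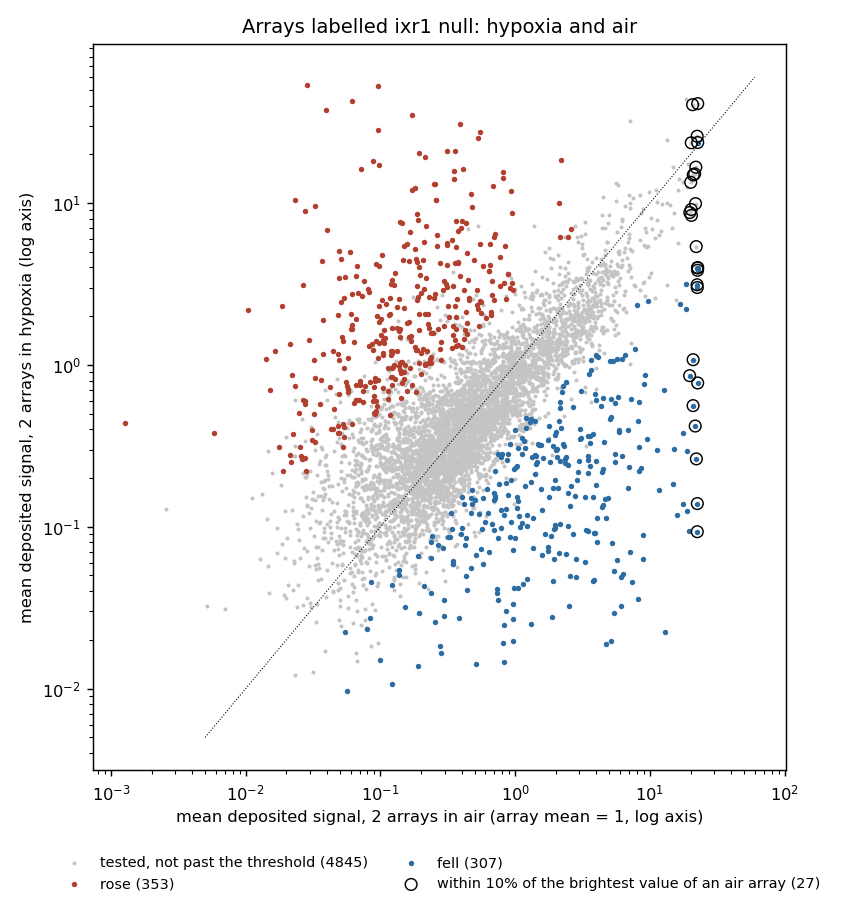
Mean deposited signal of each of the 5505 tested ORFs on the 2 hypoxia arrays (vertical) and the 2 air arrays (horizontal) labelled ixr1 null, on log axes; red points rose, blue points fell, and rings mark the 27 ORFs within 10% of the brightest value of an air array. The ringed points stand in a narrow column at the right because they were picked by air readings near the brightest values, 24.5 and 20.8. Their hypoxia readings span most of the vertical range.

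Among the rises with a fold, the largest was SOA1, a transporter of sulfur compounds. It read 22.1 and 34.5 on the hypoxia arrays, against 0.111 and 0.0791 on the air arrays, a log2 difference of 8.65 ± 0.64 (SE) or 401-fold (adjusted p = 7.92e-05). QDR3, a multidrug transporter of the plasma membrane, read 18.2 and 16.1 in hypoxia, against 0.0982 and 0.0981 in air, a fitted rise of 264-fold (adjusted p = 7.92e-05). Both air arrays read QDR3 almost alike. ZPS1, a wall-anchored protein known to be induced by low zinc, read 23.7 and 18.1 in hypoxia, against 0.0584 and 0.563 in air, where the arrays differed widely. SLC1, an acyltransferase that makes phosphatidic acid, read 11.9 and 12 in hypoxia, against 0.142 and 0.204 in air (101-fold, adjusted p = 9.16e-05).

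The remaining rises of this kind covered several cell functions. MAD3, a protein of the spindle checkpoint, read 15 and 9.68 in hypoxia, against 0.146 and 0.216 in air. ATG14, a subunit of the lipid kinase complex that starts autophagy, read 19.2 and 22.6 in hypoxia, against 0.255 and 0.457 in air. GIP4, a partner of the protein phosphatase Glc7, read 7.74 and 7.28 in hypoxia, against 0.178 and 0.109 in air. Their folds were 95, 87.3 and 74.3. YCX1 rose 154-fold, YDR262W 103-fold and YDL109C 143-fold. The call of YDL109C ended without air array B (adjusted p = 0.0502). YDR360W rose 274-fold and YBL053W 76.3-fold, and neither systematic name has an entry in the RefSeq gene table. Such unmatched names made up 8.22% of all rises, 4.56% of all falls and 6.14% of the ORFs tested.

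The falls with a fold were led by YER138C, the Gag-Pol reading frame of a Ty1 retrotransposon, which read 0.142 and 0.109 on the hypoxia arrays, against 19.5 and 18.2 on the air arrays (290-fold, adjusted p = 0.000503). Ty1 copies are nearly identical, so the signal cannot be assigned to 1 copy. MET14, the kinase of the second step of sulfate assimilation, read 0.154 and 0.124 in hypoxia, against 17.2 and 18.1 in air, a log2 difference of -7.88 ± 0.53 (adjusted p = 6.39e-05). HSP150, a secreted wall protein of aerated cells, read 0.193 and 0.143 in hypoxia, against 11 and 12.1 in air (119-fold, adjusted p = 0.000139). ADH2, the alcohol dehydrogenase that consumes ethanol, read 0.144 and 0.455 in hypoxia, against 8.7 and 13.9 in air (63.3-fold, adjusted p = 0.00252). The naming rule for these rises and falls required readings that did not overlap between conditions, so nothing is read from that. It held for 59.0% of all ORFs tested.

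TFB6 and KIN28, both of the transcription factor complex TFIIH, were among the 12 largest falls. TFB6 read 0.114 and 0.253 in hypoxia, against 13.6 and 16.1 in air, and KIN28, its kinase, read 0.24 and 0.199, against 9.11 and 7.5. PEX10, a ubiquitin ligase of the peroxisome membrane, read 0.335 and 0.269 in hypoxia, against 16.2 and 14 in air. SER33, which starts serine synthesis from a glycolytic intermediate, read 0.407 and 0.348, against 18.9 and 16.5. FPK1, a kinase that activates lipid flippases, read 0.0863 and 0.105 in hypoxia, against 3.42 and 3.23 in air. MET5 fell 66.3-fold, RPL27A 62.4-fold and YPL264C 99.8-fold. The calls of all 12 held without each of the 4 arrays in turn.

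**Figure D2:**
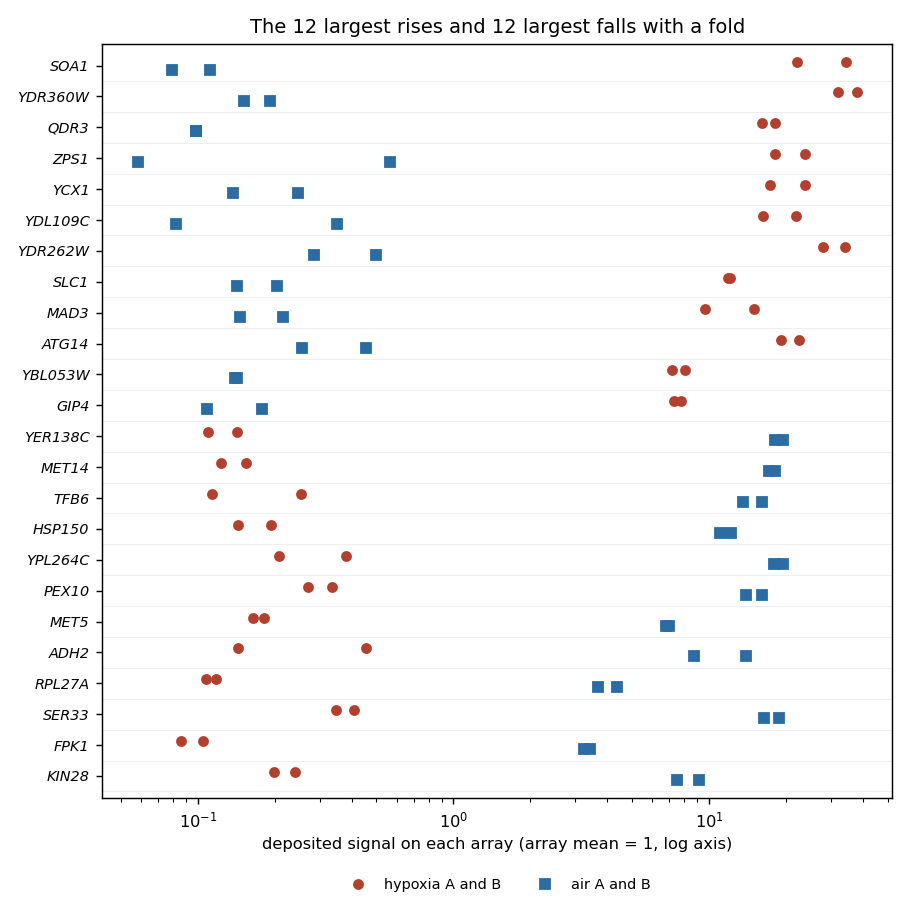
Deposited signal on each array (horizontal, log axis) for the 12 largest rises and then the 12 largest falls among ORFs neither dim nor near the brightest value; red circles are hypoxia arrays A and B, blue squares air arrays A and B. No circle overlaps a square of its own row, as the naming rule required. The widest spread within a condition is that of ZPS1 in air, 0.0584 and 0.563.

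Other ORFs changed from a reading too dim or too bright for a fold. YCF1, a vacuolar pump for glutathione conjugates, was at the brightest value of both hypoxia arrays, at 57.3 and 49.9 (on array B 1 of 3 ORFs there), against 0.00279 and 0 in air. It was not tested because of the zero, and in wild type arrays it read 150 and 79.6 in hypoxia, against 0.134 and 0.0194 in air. YJR018W stood beside it at 56.7 and 49.9 in hypoxia, against 0.0264 and 0.0302 in air. YFL067W read 56.8 and 49.2 in hypoxia, against 0.17 and 0.0216 in air. NUP60, a nuclear pore protein, read 9.17 and 8.66 in hypoxia, against 0.0371 and 0.0175 in air (adjusted p = 7.95e-05). YPR147C, YDL041W and YDL034W were the other 3 of smallest p, with hypoxia readings between 8.3 and 44.5 and air readings between 0.027 and 0.0955.

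On the falling side, AIR2, an RNA-binding subunit of the TRAMP complex of nuclear RNA decay, read 0.0395 and 0.0322 in hypoxia, against 8.59 and 7.78 in air (adjusted p = 1.7e-05). EGD1, a subunit of the complex that binds nascent polypeptides, read 0.0272 and 0.0712, against 6.76 and 5.43. YRB1, which binds the Ran GTPase, read 0.0803 and 0.0801 in hypoxia, against 4.29 and 3.81 in air. RAV2, of the complex that assembles the vacuolar ATPase, read 0.0264 and 0.0381, against 2.99 and 2.06. YET1, a protein of the endoplasmic reticulum, and the thioredoxin TRX2 completed the 6 of smallest p. All 6 were under the 10th percentile of at least 1 hypoxia array and between 2.06 and 8.59 in air.

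Zeros gave a short list of messages detected in 1 condition only. At 43 ORFs both air arrays were at 0 and both hypoxia arrays above it, and at 11 ORFs the reverse held, while 5 ORFs were at 0 on all 4 arrays. AAC3, the ADP/ATP carrier isoform of anaerobic cells, was the highest of the 43, with 1.08 and 1.2 in hypoxia. In wild type hypoxia AAC3 read 0.267 and 0.347, and it was at 0 in wild type air as well. TTI1, a gene close to IXR1 in the RefSeq table that encodes a protein of the ASTRA complex, read 0.44 and 1.06 in hypoxia and was at 0 in air, where wild type read 0.0396 and 0. YER091C-A read 1.01 and 0.896, and only 3 of the 43 lay above the median of the positive values on both hypoxia arrays. HXT14, SUT2 and YOL131W read between 0.0639 and 0.676. Of the 11 at 0 in hypoxia, none lay above that median on both air arrays: PSF1, PDR18, YDR250C, YIL028W, YKL036C and YDR355C read between 0.011 and 0.0932 in air.

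Few of the genes best known as hypoxic passed the test, at shares not far from those of all ORFs tested. On that list 1 member was at 0 on both air arrays and was not tested. Of 24 tested members of that list 1 rose and 1 fell (4.17% each, beside 6.41% and 5.58% of all ORFs tested), and their median log2 difference of -0.17 lay beside -0.20 for all ORFs tested. DAN1, a mannoprotein made in anaerobic cells, rose: 5.09 and 3.98 in hypoxia, against 0.0707 and 0.298 in air, 49.2-fold (adjusted p = 0.00376). TIR1, another wall mannoprotein, fell: 0.168 and 0.137 in hypoxia, against 1.39 and 2.2 in air, a log2 difference of -4.16 ± 0.68 (adjusted p = 0.00435). Wild type arrays gave differences of 4.84 for DAN1 and -4.32 for TIR1.

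Other well known hypoxic genes did not pass the test. ANB1, the anaerobic form of translation factor eIF5A, read 2.77 and 2.94 in hypoxia, against 3.09 and 4.3 in air, and its aerobic counterpart HYP2 read 1.82 and 2.16, against 2.89 and 3.9. HEM13, of heme synthesis, read 1.98 and 2.38 in hypoxia, against 5.41 and 5.68 in air (log2 difference -1.25 ± 0.48, adjusted p = 0.145). COX5B, the hypoxic subunit isoform of cytochrome oxidase, read 1.58 and 1.2, against 2.65 and 1.99. OLE1, the fatty acid desaturase, read 0.362 and 0.451, against 0.736 and 0.92 (adjusted p = 0.219). In wild type OLE1 read 0.0697 and 0.212 in hypoxia, against 3.72 and 1.74 in air. The test of the difference between genotypes gave 3.21 ± 0.83 on the log2 scale for OLE1, with an adjusted p of 0.13.

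Of the 19 tested regulators of oxygen, heme and sterol response, IXR1 and RIM101 fell (10.5%, beside 5.58% of all ORFs tested) and none rose. RIM101, a repressor that acts in the alkaline pH response and on wall genes, read 0.0489 and 0.035 in hypoxia, against 1.01 and 1.09 in air (adjusted p = 0.00021). IXR1 had a log2 difference of -3.67 ± 0.48 (adjusted p = 0.000936), beside -4.46 in wild type. ROX1, the heme-dependent repressor, read 2.08 and 2.08 in hypoxia, against 2.33 and 2.14 in air (log2 difference 0.18 ± 0.41). That fitted sign is opposite to the order of the readings, because the fit uses quantile-normalized values. HAP1, the heme-responsive activator, read 5.45 and 3.58, against 2.11 and 1.7, with an adjusted p of 0.109. Its conditions did not overlap, as at 59.0% of all ORFs tested.

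Of 20 tested PAU genes, which encode small serine-poor mannoproteins, 8 rose (40%, beside 6.41% of all ORFs tested) and none fell, and 18 of the 20 had a fitted difference above 0. Their median log2 difference was 1.81, and it lay between 1.46 and 2.00 over all alternatives. PAU7 read 3.28 and 3.07 in hypoxia, against 0.145 and 0.0928 in air (39-fold, adjusted p = 0.00016). PAU3 read 3.36 and 2.66, against 0.214 and 0.414, and its call ended without air array A (adjusted p = 0.067). PAU5, PAU6, PAU11, PAU14, PAU15 and PAU18 rose between 3.73-fold and 4.51-fold. These 6 calls were fragile: without hypoxia array A 3 PAU genes passed, without hypoxia array B 2 (and 1 fell), without air array A 1 and without air array B 2. On the deposited scale 2 passed. PAU genes are nearly identical in sequence, so their probes may share signal and the 20 values are not independent.

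Among the 8 tested DAN and TIR genes the members diverged. DAN1 rose and TIR1 fell, as given above. TIR2 read 1.82 and 2.88 in hypoxia, against 0.361 and 0.786 in air (adjusted p = 0.242). DAN4 read 0.361 and 0.347, against 0.349 and 0.367, and TIR3 read 0.379 and 0.235, against 0.177 and 0.221. TIR4 read 0.042 and 0.265 in hypoxia, against 0.481 and 0.504 in air (adjusted p = 0.083). PAU23 and PAU24, which also carry DAN names, are counted in both lists and did not pass.

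**Figure D3:**
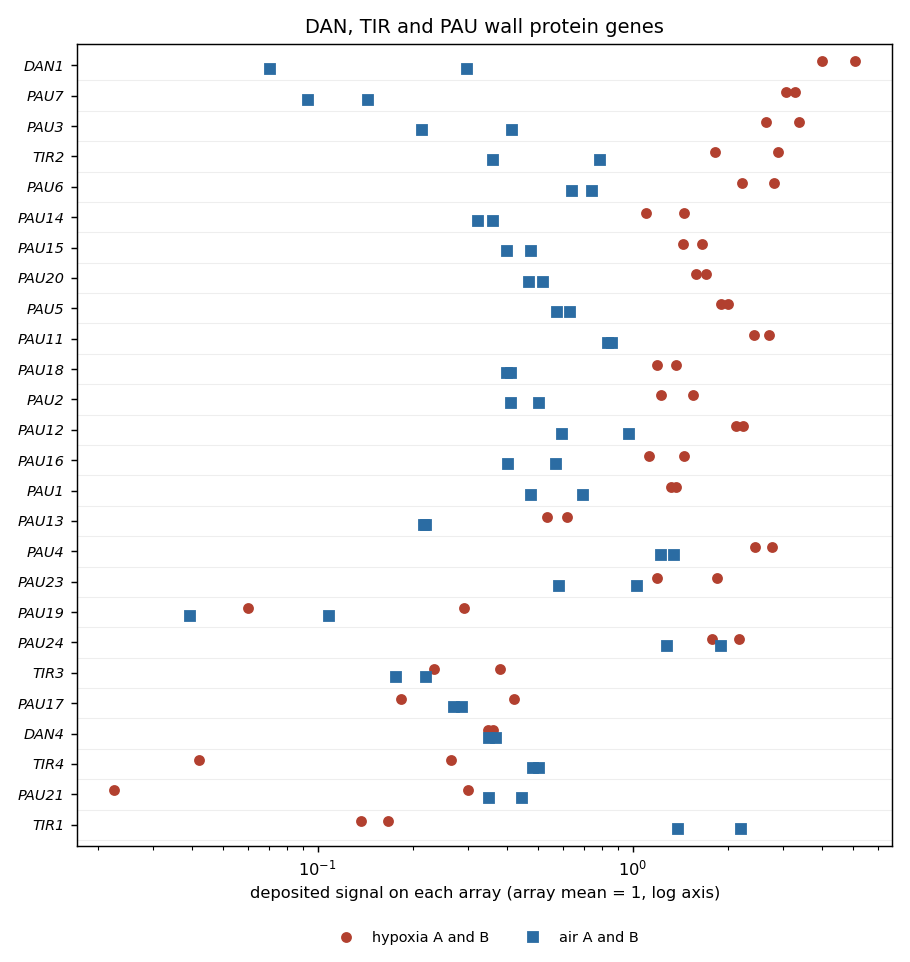
Deposited signal on each array (horizontal, log axis) for the 26 tested DAN, TIR and PAU genes, ordered by their fitted difference; red circles are hypoxia arrays A and B, blue squares air arrays A and B. Most PAU rows show hypoxia near 1 to 3 and air lower, and TIR1 at the foot shows the opposite order.

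Of 23 tested wall genes of aerated cells, 8 fell and 1 rose, shares of 34.8% and 4.35%, beside 5.58% and 6.41% of all ORFs tested. CWP2, the mannoprotein that the Dan and Tir proteins replace, read 0.994 and 1.16 in hypoxia, against 23.8 and 18 in air, where it was near the brightest value. CCW12, another abundant wall protein, read 4.03 and 3.65, against 24.5 and 20.7, also at the limit of the air arrays. SED1, BGL2, PIR1, PIR3, SCW4 and HSP150 were the other 6 falls. Without hypoxia array A, and likewise without air array B, the list held 5 falls. GAS3, a glucanosyltransferase relative, was the rise, at 0.241 and 0.972 in hypoxia, against 0.0447 and 0.0873 in air, and its call ended in 3 of 4 fits with 1 array left out (highest adjusted p 0.281). The other 14 genes did not pass: CWP1, for example, read 2.26 and 2.47 in hypoxia, against 2.12 and 3.24 in air. The list's median was -0.38.

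Of 17 glycolytic genes tested 6 fell (35.3%, beside 5.58% of all ORFs tested) and none rose, and 5 of these 6 read within 10% of the brightest value on the air arrays. TDH3, the most abundant isoform of the triose phosphate dehydrogenase step, read 0.158 and 0.367 in hypoxia, against 23.7 and 20.5 in air (adjusted p = 7.92e-05). FBA1, the aldolase, read 0.863 and 0.683, against 24.5 and 20.8 (adjusted p = 0.000917). TDH1 read 0.0859 and 0.192, against 24.2 and 20.8, and TDH2 read 4.11 and 3.86, against 24.5 and 20.8. TDH2 lost its call without any 1 of the 4 arrays (adjusted p 0.0813 to 0.122). GPM1, the phosphoglycerate mutase, read 2.78 and 3.23 in hypoxia, against 24.3 and 20.7 in air. PFK2, a phosphofructokinase subunit, was the only fall away from the limit. The median of the list was -0.78, and over the alternatives it lay between -0.90 and 0.01.

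Other steps of the same pathway did not pass. PGK1, the phosphoglycerate kinase, read 16.7 and 11.3 in hypoxia, against 17.8 and 14.9 in air. Its readings thus averaged lower in hypoxia, while the log2 difference after quantile normalization was 0.01 ± 0.43. ENO2, the main enolase, read 20.7 and 28.2, against 13 and 13.6 (adjusted p = 0.173), and ENO1 read 41.8 and 39.1, against 22.6 and 18.9. CDC19, the pyruvate kinase, read 5.73 and 5.82, against 2.42 and 3.39 (adjusted p = 0.0913). The Tdh enzymes are close paralogs, as are the enolases, so probes may share signal.

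The limit of the air arrays also touched ORFs outside glycolysis. Of 27 ORFs within 10% of the brightest value of an air array, 14 fell and none rose, beside 5.58% and 6.41% of all ORFs tested. They were picked by their air readings at the top of the range, which favours falls, so nothing is read from the count. SAM2, IPP1, BET3, HSP12, YKR040C and YLL053C were among the falls, with hypoxia readings between 0.061 and 4.3. YCR013C is singled out after its values were seen: it counted as a fall with 27.8 and 19.5 in hypoxia, against 24.5 and 20.8 in air. It was the only call whose groups overlapped on the deposited scale, where its log2 difference was 0.05. AHP1, a peroxiredoxin, was not called, at 39.2 and 42.9 in hypoxia, against 24.5 and 20.8 in air. Its fitted log2 difference of -0.88 had the opposite sign to the readings, because quantile normalization keeps ranks and not values.

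Of 9 fermentation genes tested, ADH2, ADH3 and PDC5 fell (33.3%) and ADH4 rose (11.1%), beside 5.58% and 6.41% of all ORFs tested, and the median of the list was -1.31. The ADH4 call ended without hypoxia array A and without air array B (highest adjusted p 0.0927). ADH1, the main ethanol-forming dehydrogenase, read 16.8 and 13.4 in hypoxia, against 23.4 and 19.5 in air, near the limit. PDC1, the main pyruvate decarboxylase, read 6.8 and 7.64, against 2.89 and 2.64 (adjusted p = 0.07). HXT1, a low-affinity glucose transporter, fell: 0.195 and 0.354 in hypoxia, against 3.77 and 3.13 in air (17.5-fold, adjusted p = 0.00032). HXT4, a transporter of higher affinity, read 3.79 and 5.52, against 0.648 and 0.887 (7.46-fold, adjusted p = 0.00728). The HXT4 call ended without hypoxia array B (adjusted p = 0.0542) and without air array A (adjusted p = 0.0656).

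None of 24 tested respiratory chain genes passed, and their median was -0.61. COX6 came near the threshold with 0.281 and 0.254 in hypoxia, against 0.751 and 0.682 in air (adjusted p = 0.0563). CYC1, the aerobic cytochrome c isoform, was not tested, with 0.00886 and 0 in hypoxia, against 0.165 and 0.109 in air. Of 12 ATP synthase genes tested 2 rose and 2 fell (16.7% each, beside 6.41% and 5.58% of all ORFs tested). The median of that list was -0.79, and 8 of the 12 had a fitted difference below 0. ATP1, the alpha subunit of its soluble head, read 7.5 and 6.96 in hypoxia, against 0.19 and 0.247 in air (46.6-fold, adjusted p = 0.000456). INH1, the inhibitor of the enzyme, read 0.0701 and 0.0807, against 1.62 and 1.9 (adjusted p = 9.45e-05). ATP5 also rose and ATP3 also fell, and the ATP5 call ended without air array B (adjusted p = 0.0674), that of ATP3 without any 1 array (adjusted p 0.0646 to 0.138). LPD1, a dehydrogenase subunit shared by mitochondrial complexes, rose 12.5-fold.

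The ergosterol pathway had 1 rise (4%, beside 6.41% of all ORFs tested) and no fall among 25 genes tested. ERG28, a scaffold for the demethylation enzymes, read 2.4 and 2.57 in hypoxia, against 0.552 and 0.552 in air (5.87-fold, adjusted p = 0.00654, and 0.0578 without air array B). ERG3, a desaturase, read 5.25 and 5.28, against 1.8 and 1.78 (adjusted p = 0.0847), and ERG25, a methyl oxidase, read 4.42 and 5.57, against 1.51 and 1.8. ERG11, the demethylase, read 0.162 and 0.23 in hypoxia, against 0.642 and 0.581 in air, and ERG1, the epoxidase, read 0.26 and 0.432, against 0.641 and 0.558. Neither passed. The sterol importers AUS1 and PDR11 did not pass either.

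Of 26 tested genes of sulfate assimilation and methionine metabolism 9 fell (34.6%, beside 5.58% of all ORFs tested) and 2 rose (7.69%), with a median log2 difference of -1.26. Over the alternatives that median lay between -2.10 and -0.92. The route from sulfate to sulfide fell at each step tested. MET3, ATP sulfurylase, read 0.354 and 0.196 in hypoxia, against 6.05 and 6.42 in air, and MET14 is given above. Of the sulfite reductase subunits, MET10 read 0.878 and 0.639 in hypoxia, against 10.3 and 7.88 in air, and MET5 read 0.165 and 0.181, against 6.77 and 6.94 (66.3-fold, adjusted p = 0.000124). MET16, the reductase between them, was not tested, with 0 and 0.035 in hypoxia, against 5.03 and 5.07 in air.

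Beyond sulfide, CYS3 of cysteine synthesis read 0.701 and 0.699 in hypoxia, against 10.3 and 15.2 in air. SAM2, which makes S-adenosylmethionine, read 2.89 and 3.36, against 24 and 20.8, and its paralog SAM1 was untested at 0.0228 and 0, against 19.3 and 17.2. The other falls were SUL2, a sulfate permease, MET28, a regulator of the pathway, and MHT1, a methyltransferase that recycles homocysteine. The 2 rises were MET8, which makes the siroheme cofactor of sulfite reductase, and MUP3, a low-affinity methionine permease. MET8 read 1.82 and 1.51 in hypoxia, against 0.33 and 0.395 in air (5.8-fold, adjusted p = 0.00472). MUP3 read 1.48 and 1.5, against 0.134 and 0.146, and its call ended without any 1 array (adjusted p 0.0597 to 0.0734).

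In wild type arrays MET14 read 0.336 and 0.251 in hypoxia, against 3.52 and 4.18 in air, and MET5 read 0.573 and 0.904, against 1.62 and 1.66. Over the 24 sulfur genes with a value in both genotypes, the median log2 difference was -1.75 in the arrays labelled null and -0.23 in wild type. Such gaps were not particular to sulfur genes. For glycolysis the 2 medians were -0.78 and -2.96, and for general stress genes -0.41 and 0.98. None of these differences between medians was tested. Of single genes, MET5 passed the test of the difference between genotypes, with the limits given below for that test, and MET14 did not (adjusted p = 0.0712).

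Of 55 tested amino acid synthesis genes 9 fell (16.4%) and 3 rose (5.45%), beside 5.58% and 6.41% of all ORFs tested, and the median of -0.15 lay close to that of all ORFs. LYS9, of lysine synthesis, read 0.0488 and 0.00652 in hypoxia, against 2.4 and 1.38 in air (adjusted p = 0.000677), and SER33 is given above. ILV3, of branched-chain synthesis, read 1.09 and 1.05, against 0.0398 and 0.0243, and ARO1, of aromatic synthesis, read 3.62 and 2.77, against 0.882 and 1. The 3 rises were all lost in each fit that left out 1 array, and without either air array 5 falls were counted.

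Of 25 antioxidant and thiol genes 5 fell (20%) and 1 rose (4%), beside 5.58% and 6.41% of all ORFs tested, with a median of -0.88. TRX2, a cytosolic thioredoxin, read 0.0278 and 0.01 in hypoxia, against 5.61 and 3.76 in air (adjusted p = 6.39e-05). GRX1, a glutaredoxin, read 0.163 and 0.142, against 4.16 and 3.36 (38.6-fold, adjusted p = 0.00108). GPX2, a glutathione peroxidase, was the rise, with 3.9 and 4.35 in hypoxia, against 0.644 and 0.664 in air (8.25-fold, adjusted p = 0.00342). Without air array A the falls numbered 2, without hypoxia array B or air array B 3.

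Of 15 tested Hsp70, Hsp90 and cochaperone genes 2 fell (13.3%) and none rose, with a median log2 difference of -0.01. Of 17 general stress genes 3 fell (17.6%) and none rose, and all 3 were dim or near the brightest value. Over all ORFs tested 5.58% fell. SSA2, an Hsp70 chaperone of the cytosol, read 0.467 and 0.234 in hypoxia, against 8.69 and 10.3 in air (adjusted p = 0.00344), and SSB2, which works at the ribosome, read 0.21 and 0.584, against 6.65 and 5.07 (adjusted p = 0.00151). GRE1, a hydrophilin induced by stress, read 0.0833 and 0.0183 in hypoxia, against 5.73 and 6.96 in air (adjusted p = 0.0043). HSP104, the disaggregase, read 13.8 and 12.8, against 5.65 and 5.48, and did not pass (adjusted p = 0.0736). RNR4, a small subunit of ribonucleotide reductase, read 0.109 and 0.161, against 2.24 and 2.87 (30.2-fold, adjusted p = 0.00045).

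Protein synthesis genes mostly stayed below the threshold, with single members far from the rest. Of 74 ribosome biogenesis genes 5 rose (6.76%) and 2 fell (2.70%), and the share of rises lay near the 6.41% of all ORFs tested. UTP5, of the complex that processes the small subunit RNA, read 8.71 and 12.2 in hypoxia, against 0.123 and 0.398 in air (66.6-fold, adjusted p = 0.00057), and ENP1 read 4.18 and 4.69, against 0.135 and 0.161 (45-fold, adjusted p = 0.00027). UTP8 and UTP9, of the same complex as UTP5, fell: UTP8 read 0.0198 and 0.017 in hypoxia, against 0.414 and 0.139 in air. Without hypoxia array B the falls numbered 5. RPG1, a subunit of initiation factor eIF3, read 14.2 and 14.5, against 0.794 and 0.819 (22.2-fold, adjusted p = 0.000802).

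Of 69 large subunit ribosomal proteins 7 fell (10.1%) and 3 rose (4.35%), and of 50 of the small subunit 3 fell (6%) and none rose. Over all ORFs tested 5.58% fell and 6.41% rose, so the small subunit's falls were near that share. Their medians were -0.51 and -0.58. RPL4A read 7.31 and 8.16 in hypoxia, against 0.327 and 0.399 in air (29-fold, adjusted p = 0.000251), while RPL27A read 0.108 and 0.118, against 4.37 and 3.68 (adjusted p = 0.00016). RPP0, of the ribosomal stalk, read 0.169 and 0.0574, against 4.85 and 4.59 (adjusted p = 0.000545). Of 72 mitochondrial ribosomal proteins 4 fell (5.56%) and 3 rose (4.17%), beside the same shares. MRPS5 read 5.45 and 5.4, against 0.73 and 0.953, and MRPL35 read 0.603 and 0.619, against 7.25 and 7.19. Many cytosolic ribosomal proteins have a near-identical paralog, so signal may be shared between copies.

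**Figure D4:**
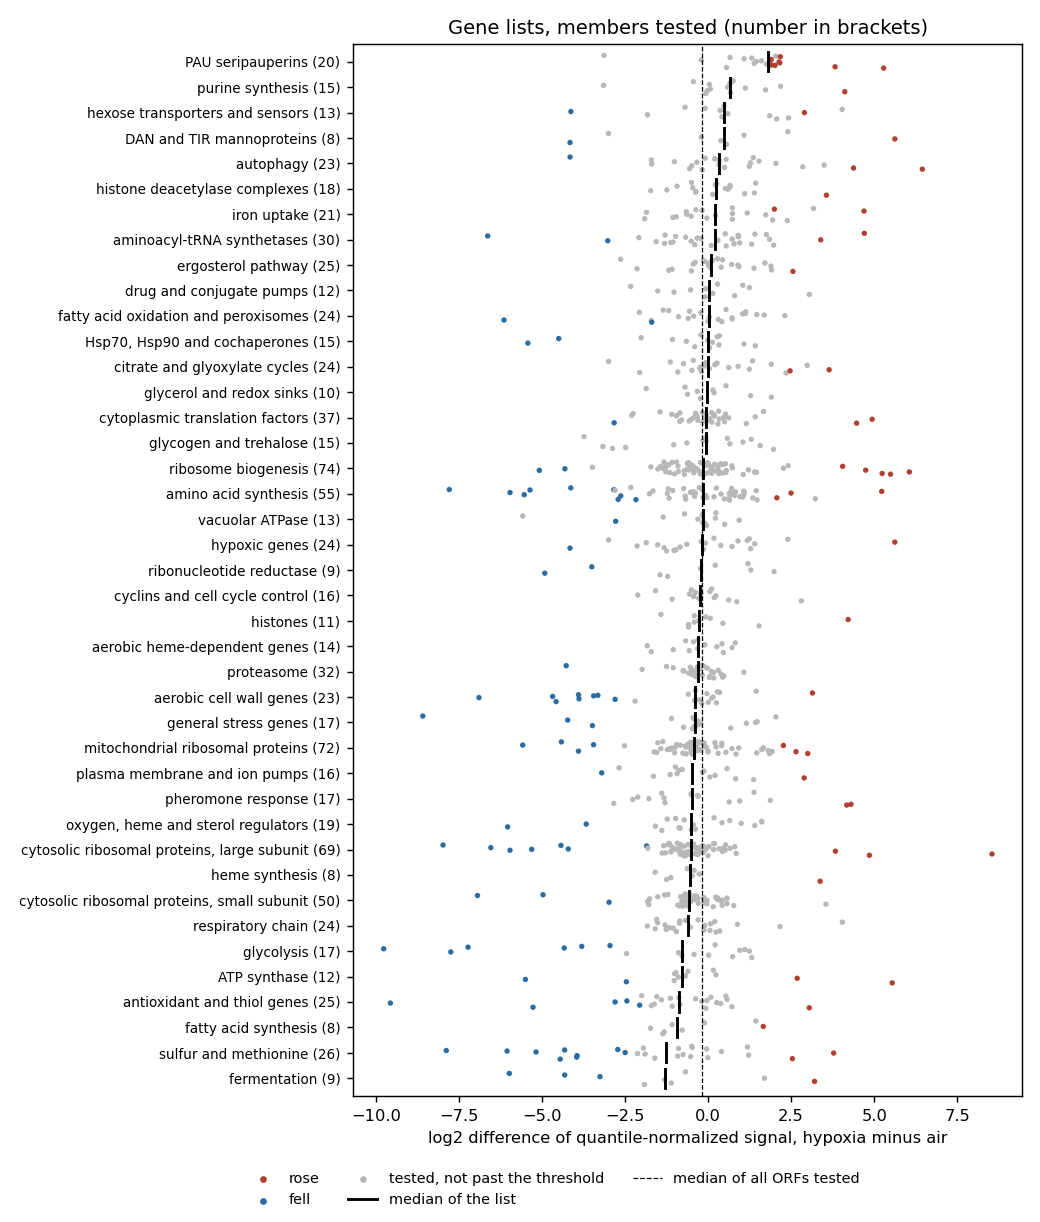
Fitted log2 differences, hypoxia minus air, of the tested members of each list with at least 8 of them (number in brackets), 1 point a gene; red points rose, blue points fell, the black bar is the median of the list and the dashed line, at -0.20, that of all ORFs tested. Most medians lie near the dashed line, the highest is that of the PAU genes at 1.81, and the lowest are those of fermentation genes at -1.31 and of sulfur and methionine genes at -1.26.

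Smaller lists held single calls. HEM3, of heme synthesis, read 0.656 and 0.556 in hypoxia, against 0.0483 and 0.0823 in air, and ADE6, of purine synthesis, rose 17.3-fold (adjusted p = 0.00155). Of 6 aryl alcohol dehydrogenase genes, which are near-identical subtelomeric copies, AAD6 and AAD3 rose (33.3%, beside 6.41% of all ORFs tested). AAD6 read 1.19 and 1.49 in hypoxia, against 0.00921 and 0.0335 in air, and the AAD3 call ended without air array A. Of 21 iron uptake genes ENB1 and FIT3 rose (9.52%, beside 6.41% of all ORFs tested). FIT3, a wall protein that retains iron carriers, read 3.29 and 2.65 in hypoxia, against 0.845 and 0.979 in air, and in wild type 1.04 and 0.799 in hypoxia, against 4.72 and 3.53 in air. The test of the difference between genotypes gave FIT3 4.34 on the log2 scale (adjusted p = 0.0583). The FIT3 call in the arrays labelled null ended without any 1 of the 4 arrays (adjusted p 0.131 to 0.209), that of ENB1 without hypoxia array B or air array A, and that of HEM3 without every array but air array B.

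Mating genes were read because BY4741 is a haploid of mating type a. Of 6 tested a-specific genes 2 fell (33.3%) and 1, AGA1, rose (16.7%), beside 5.58% and 6.41% of all ORFs tested. The AGA1 call was lost without any 1 array. MFA2, 1 of the a-factor genes, read 0.0439 and 0.000543 in hypoxia, against 14.6 and 11.2 in air (adjusted p = 0.00117), while its paralog MFA1 read 1.01 and 1.16, against 3.19 and 2.76. AGA2, the binding subunit of a-agglutinin, read 0.0561 and 0.0847, against 1.95 and 1.53. BAR1, the protease that cleaves alpha-factor, was not tested, at 0.0103 and 0, against 2.07 and 2.43. Of the 4 alpha-specific genes 2 could be tested and neither passed. SAG1, 1 of these, read 0.809 and 0.965 in hypoxia, against 0.955 and 0.954 in air. Of 17 tested pheromone response genes 2 rose (11.8%, beside 6.41% of all ORFs tested) and none fell. Of these 17, 11 had a fitted difference below 0, and the median was -0.50. The 2 rises were FUS3, the mating kinase, at 18-fold, and FIG1, a membrane protein of mating cells, at 19.7-fold.

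The wild type arrays share no array with this comparison, and the difference between the genotypes was tested directly. Across the 4844 ORFs with a value on all 8 arrays, the hypoxia difference of the arrays labelled null correlated with that of wild type at a Pearson r of 0.653 and a Spearman rho of 0.416, a description across ORFs that are not independent. Of the 286 rises with a wild type value 254 were higher in wild type hypoxia too, and of 299 such falls 275 were lower. The medians of these ORFs in wild type were 2.15 and -3.30. Since these ORFs were picked by their values in the arrays labelled null, the sizes in the 2 genotypes are not compared. The share of equal sign over all 4844 ORFs is not given here, so nothing is read from the counts of 254 and 275.

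The test of the difference called 7 of 4844 ORFs (0.145%), and 741 had an unadjusted p under 0.05. All 7 had adjusted p between 0.0449 and 0.0452. This count depended on how the variances were moderated: with the prior estimated over all ORFs, a setting whose count was known when the one used here was chosen, none passed. None passed either on the deposited scale or with arrays centred on medians. No fit with 1 array left out kept all 7 calls. SPP381, a splicing protein, rose in the arrays labelled null, with 4.29 and 5.2 in hypoxia, against 0.103 and 0.101 in air. In wild type it read 0.532 and 0.415 in hypoxia, against 0.275 and 0.116 in air. CDC19, as given above, was higher in hypoxia in the arrays labelled null without passing, and in wild type it read 0.876 and 1.24 in hypoxia, against 7.5 and 6.26 in air. The others were HSL7, EEB1, AIR2, YRB1 and MET5.

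**Figure D5:**
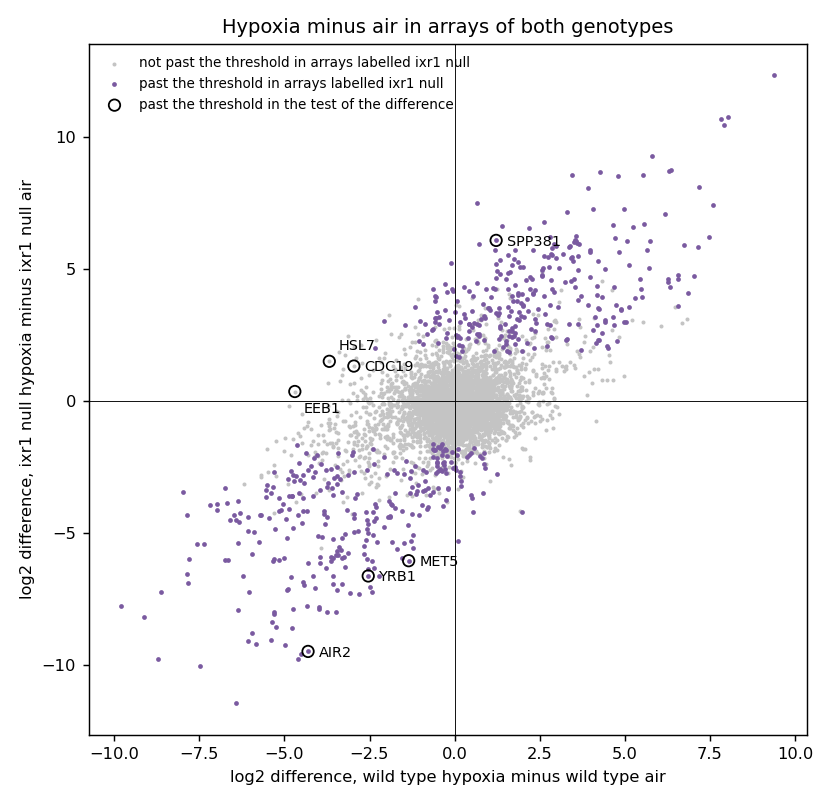
Fitted log2 differences, hypoxia minus air, of 4844 ORFs in the arrays labelled ixr1 null (vertical) and in wild type arrays (horizontal); purple points passed the test in the arrays labelled null, and rings mark the 7 ORFs past the test of the difference. Most purple points lie at the upper right and lower left, where both genotypes have the same sign. The share of equal sign over all 4844 ORFs is not given, so nothing is read from that. The ringed HSL7, CDC19 and EEB1 lie in the upper left.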

How the data were processed

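The values the authors deposited are intensities on a linear scale, 1 per ORF and array. Each array averages close to 1, exact zeros occur and no value is negative. Per the labels' protocols, cDNA primed with oligo-dT and labelled with 32P was hybridised. No source used here names the scanner, background correction or scaling. The 12 arrays were quantile normalized with zeros included, zeros were set to missing, and log2 values were fitted as 6 group means, which share 1 estimate of the spread. The other 2 groups are shifts to hypoxia, and the 2 shift arrays labelled null hold 3489 and 1799 zeros. Without the 4 shift arrays 864 ORFs passed, 639 of them among the 660. An ORF was tested if it had a value on all 4 arrays compared (all 8 for the test of the difference). The empirical Bayes moderation of limma (version 3.58.1, in R 4.3.3) was applied, with the prior estimated over the ORFs tested in that comparison. The first run estimated it over all ORFs. The change was made after both sets of counts had been seen, because it followed an earlier processing of these data, and both are given. P-values are adjusted by the Benjamini-Hochberg method at a threshold of 0.05. With 2 arrays a group, the smallest two-sided p of an exact permutation test is 0.333. The fit was tested on simulated data. It recovered few of the smaller changes put in, and most but fewer than first required of the larger ones. The requirement was lowered after that run. An ORF that did not pass is therefore not shown to be unchanged.

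Names came from the RefSeq table of assembly R64, which matched 5571 of 5974 ORFs. The members, the 48 gene lists and the naming rule were chosen with earlier results of these data known. Named are the 12 largest rises and falls with a fold, the 6 of smallest p in each direction without one, the 6 highest at 0 in the other condition, up to 4 members of smallest p per list, up to 5 per direction in the test of the difference, and a fixed set of oxygen-related genes. Where a list's other called members are named, they were named after their values were seen. Alternatives covered the normalization, zeros, dim and bright ORFs, the arrays fitted, the letter as a block, the moderation and each array left out.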

Additional observations from a re-analysis of the deposited data

Results flagged for a closer look

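The 7 ORFs past the test of the difference between genotypes are given here with that difference, the hypoxia response in arrays labelled null minus that in wild type arrays, on the log2 scale. It was 5.17 for HSL7, an arginine methyltransferase of the morphogenesis checkpoint, 5.04 for EEB1, which makes fatty acid ethyl esters, 4.85 for SPP381 and 4.27 for CDC19. It was -5.18 for AIR2, -4.70 for MET5 and -4.09 for YRB1. HSL7 read 0.576 and 0.698 in null hypoxia, against 0.185 and 0.294 in null air, and 0.0124 and 0.0103 in wild type hypoxia, against 0.235 and 0.27 in wild type air. EEB1 read 0.182 and 0.185 in null hypoxia, against 0.134 and 0.0964 in null air, and 0.0029 and 0.0293 in wild type hypoxia, against 0.609 and 0.525 in wild type air. Both were in the lowest 10% of positive values in wild type hypoxia, as were AIR2 and YRB1 on at least 1 null hypoxia array, so the sizes for these 4 ORFs rest on dim readings and have no firm base. YRB1 read 0.442 and 0.374 in wild type hypoxia, against 1.76 and 2.43 in wild type air, and AIR2 read 0.368 and 0.31, against 5.67 and 5.3. The calls rest on the choice of moderation, as given with the count of 7.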

How the results depend on the processing

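The 660 calls of hypoxia against air in arrays labelled null became 427 on the deposited scale (240 rises, 187 falls) and 402 with arrays centred on their medians (220 and 182). They ranged from 388 to 520 with 1 array left out, the lowest being without air array A. The other alternatives gave 440 to 864, including 634 with variances moderated over all ORFs, an alternative added after seeing the data. YCR013C, at the limit of the air arrays, had a log2 difference of -1.88 and, on the deposited scale, of 0.045. It was the only 1 of the 660 calls to turn under any alternative. The 7 calls of the test of the difference became 0 on the deposited scale, with medians centred, with quantiles over positive values, with zeros floored, with the replicate block and with the prior over all ORFs. They became 56 without the 4 shift arrays, 22 with dim ORFs left out and 46 with an intensity trend, and ranged from 0 to 17 with 1 array left out, 17 being without null hypoxia array A. With the letter as a replicate block the 660 became 718, of which 647 were shared. Same-lettered hypoxia and air arrays deviated together at a correlation of 0.298 across ORFs, over a single pair of groups, and the labels name nothing the letter stands for. Of the values for named ORFs under the alternatives, 1611 kept their direction and side of the threshold, 340 kept their direction and lost the call, and 1 turned. The count of 54 ORFs at 0 in 1 condition uses the deposited zeros and has no alternative.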
